A study of Strongylocentrotus purpuratus with 17 samples.

Results

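The regions described here are stretches of the purple sea urchin genome in which a transcribed regulatory element was called at each of 4 ages of development, 8, 12, 20 and 72 h. They were chosen by joining the 4 peak lists, merging elements that overlapped by 1 bp or more on the same scaffold into union regions, and keeping the regions that held an element of every list. There were 3665 of them among 75451 union regions, 4.86% of all. They are called members below, and since the calls themselves chose them, their presence at each stage is the rule and not a result.

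The lists came from PRO-seq of Strongylocentrotus purpuratus, a method that lets engaged RNA polymerases add biotin-tagged nucleotides in purified nuclei and then sequences the tagged RNA. All embryos had the genotype given as wild and were grown at 15 °C. The lists rest on 13 libraries by their titles, namely 2 of 8 h from 1 biological replicate, 4 of 12 h from 3, 5 of 20 h from 4 and 2 of 72 h from 2. The 12 h and 20 h libraries were re-analysed from earlier work, and 4 further libraries, quick PRO-seq at 72 h and of samples titled RedS, were not analysed here. The tissue field of the labels names the 8 h stage for every library, so stages were taken from the titles.

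Promoters and active enhancers both fire polymerase in 2 opposite directions from a short stretch of open DNA. The dREG classifier learns this divergent shape in run-on data and calls a transcribed element wherever it finds it, without deciding whether the element is a promoter or an enhancer. Genes that every cell needs keep their promoters active through development, while enhancers and the promoters of tissue genes are often switched on and off.

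Each list was shared by all libraries of its stage and gave only a scaffold, a start and an end per element, in steps of 10 bp. There was no score, read number or replicate value, so depth is unknown, no spread between replicates could be computed and no test between stages was possible. Shares below carry 95% Wilson intervals over regions or genes, in brackets, which cover counting error only. Fewer active cells and less transcription per cell cannot be told apart in these whole-embryo lists. No sequence is printed, because no genome sequence was used here.

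The lists differed greatly in length, and the 72 h list set the size of the group. It held 4425 elements, against 56158, 30570 and 37796 elements in the 8, 12 and 20 h lists. The members took in 84.7% of the 72 h elements (83.6 to 85.7) but 6.82% of the 8 h, 12.5% of the 12 h and 10.2% of the 20 h elements. They covered 5.03 Mb of the 57.1 Mb in union regions. With the 72 h list left out, 16393 regions were called at all of the 3 earlier stages, whereas leaving out the 8 h, 12 h or 20 h list gave 3731, 3838 and 3730 regions.

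The neighbouring groups were of very unequal size. The regions called at 8 h, 12 h and 20 h but not at 72 h numbered 12726. They are the natural comparison, since by the rule only the 72 h call sets them apart from the members. Their elements were also narrower at the shared stages, with medians of 850, 740 and 700 bp at 8, 12 and 20 h. The members had 1140, 1050 and 1050 bp. Regions missing only at 12 h numbered 173, only at 8 h 70 and only at 20 h 66. The largest other class was called at 8 h alone and had 26248 regions.

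Few regions missed the rule by a short distance. Only 677 elements of the 72 h list lay outside members, so few near misses were to be expected. Of the 12726 regions without a 72 h call, 1 had a 72 h element no more than 10 bp away, 4 had one within 100 bp and 224 within 1000 bp. Of the members with 1 element at each stage, none shared only 1 to 10 bp at all 4 stages, and 17 shared no base at all 4 stages. Over all members, 0.819% had no base covered at every stage.

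Most members were simple. A single element at each of the 4 stages made up 3252 of the 3665, or 88.7% (87.7 to 89.7). Members with 2 elements at a stage numbered 157, 138, 190 and 75 at 8, 12, 20 and 72 h, and no stage had more than 3 elements in a member. The bases covered at every stage had a median of 540 bp.

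The elements of the members were wide at the 3 early stages and narrow at 72 h. The span of all elements of a stage had a median of 1190 bp at 8 h, 1100 bp at 12 h, 1100 bp at 20 h and 570 bp at 72 h. The quartiles were 910 and 1490 bp at 8 h, 810 and 1380 bp at 12 h, 830 and 1380 bp at 20 h, and 480 and 750 bp at 72 h. The 3 early distributions overlapped largely, and the upper quartile at 72 h lay below the lower quartile of each of them.

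Compared within each member, the 72 h span was 0.584 times the 20 h span at the median and 0.537 times the 8 h span. It was narrower than the 20 h span in 94.0% of members (93.2 to 94.7). The 20 h span was narrower than the 12 h span in 49.3%, with a median ratio of 1. The 12 h span was 0.935 times the 8 h span at the median. In members with 1 element per stage, the element was narrower at 12 h than at 8 h in 66.5% and wider in 31.2%. Of members with 1 element per stage, the widest element was that of 8, 12, 20 or 72 h in 49.6, 20.3, 26 and 0.861% of cases, and 86.8% were narrowest at 72 h.

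The narrow 72 h element usually lay inside the earlier ones. In members with 1 element per stage it was wholly inside the 8 h element in 85.1%, inside the 12 h element in 79.6% and inside the 20 h element in 77.7%. It lay inside all 3 of them in 63.9% (62.2 to 65.5). The depth behind each list was not known, and its part in the width differences was not tested.

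Midpoints differed little between the early stages and more between these and 72 h. The median shift of the midpoint was 60 bp between 12 h and 8 h, 65 bp between 20 h and 12 h, and 115 bp between 72 h and 20 h. The 4 midpoints of a member spanned a median of 200 bp, and in 3.63% of members with 1 element per stage they lay over 500 bp apart.

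Member elements were wider than other elements of the same list at every stage. At 8 h the medians were 1140 bp in members and 620 bp outside, at 12 h 1050 and 630 bp, at 20 h 1050 and 600 bp, and at 72 h 570 and 510 bp. Wide elements overlap others more easily, so the merging rule alone favours them, and these widths are a description of the chosen regions. The union regions themselves had a median width of 1330 bp among members, 1020 bp among regions called at 8 h, 12 h and 20 h only, and 550 bp among regions called at 1 stage.

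**Figure D1:**
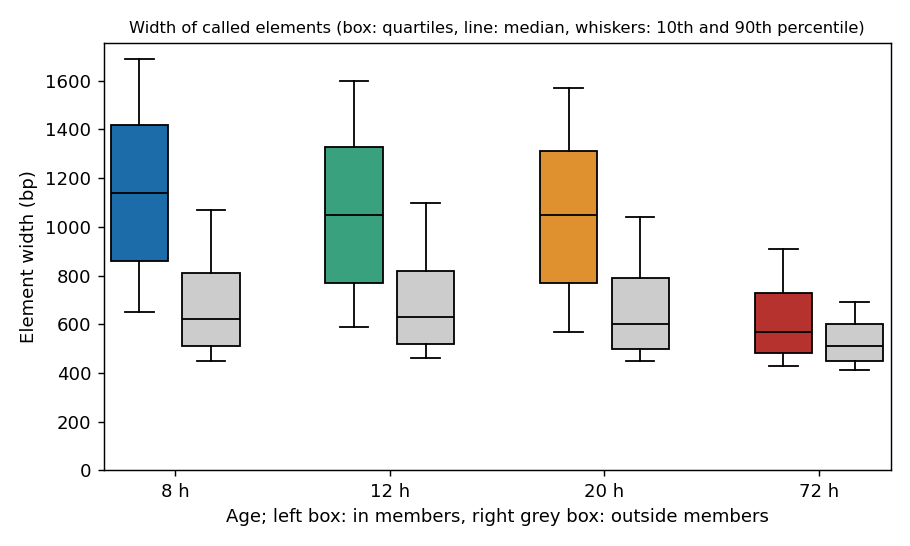
Width in bp of the called elements at 8, 12, 20 and 72 h, with the elements in members in colour on the left of each pair and all other elements of the same list in grey on the right. Boxes give quartiles, the line the median and the whiskers the 10th and 90th percentiles. Member medians lie at 1140, 1050, 1050 and 570 bp, above those of the other elements.

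Genes were placed before locations were read. The gene table for the Spur_5.0 assembly from RefSeq gave positions without scaffold or strand. Each run of at least 900 genes therefore went to the scaffold with the largest share of its gene ends near 8 h elements outside members. This gave 21 scaffolds with 30064 of 33490 genes. The share of gene ends near an element was 16.3% to 24.0% on the chosen scaffold, against 7.29% to 13.2% on the next best. Gene positions therefore rest on an inferred scaffold, and either end of a gene, not its transcription start, is the unit. Of the members, 3568 lay on these scaffolds and the other 97 are left out of what follows.

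Members lay mostly at gene ends. A region within 500 bp of either end of a gene made up 74.8% of members (73.4 to 76.2), against 47.1% of the regions called at 8 h, 12 h and 20 h only (46.2 to 48.0). The share was 21.9% among regions called at 2 stages, 12.7% among those called at 1 stage and 23.6% among all union regions. The other members lay inside a gene away from its ends (11.8%) or between genes (13.4%). Among the regions called at 8 h, 12 h and 20 h only these shares were 24.3% and 28.7%.

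The difference was present in every width class. Among regions under 600 bp, 46.0% of 63 members and 24.9% of the regions called at 8 h, 12 h and 20 h only were at a gene end. From 1000 to under 1200 bp the shares were 70.5% and 52.5%, and from 1200 to under 1400 bp 81.8% and 63.8%. At 1800 bp and over they were 86.1% and 59.5%. The intervals of the 2 groups did not overlap in any of the 8 classes.

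**Figure D2:**
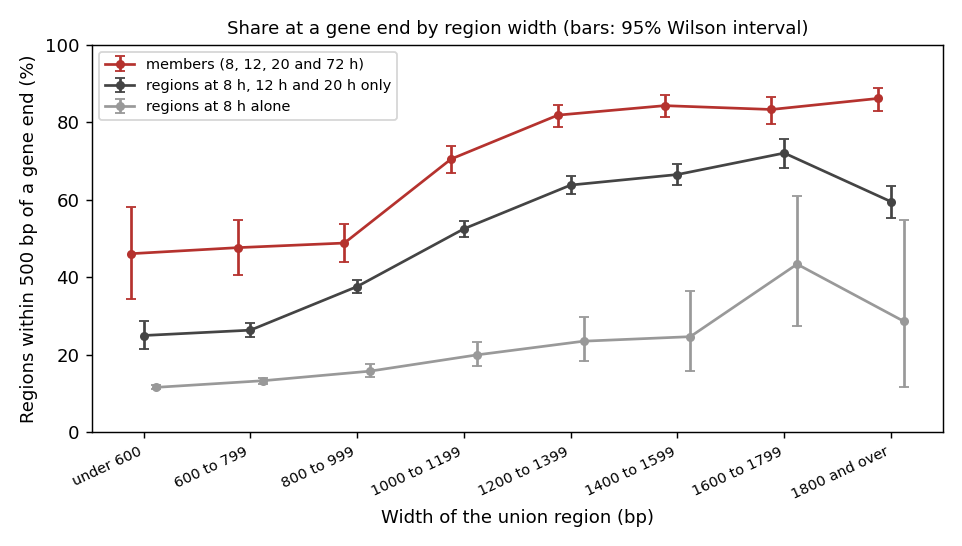
Share of regions within 500 bp of a gene end, in percent, by width of the union region in bp, for members, for regions called at 8 h, 12 h and 20 h only, and for regions called at 8 h alone. Bars are 95% Wilson intervals. The members lie above the others in every class, from 46.0% under 600 bp to 86.1% at 1800 bp and over.

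Seen from the gene, 2967 of 24774 placed protein-coding genes had a member at an end, 12.0% (11.6 to 12.4). A region of any pattern was called at an end of 49.8%, 40.2%, 43.7% and 12.7% of these genes at 8, 12, 20 and 72 h. The member lay at the left end alone in 49.3% of the genes and at the right end alone in 48.5%, and both ends were taken in 2.12%. Genes with a member were longer, with a median of 15071 bp, against 9596 bp for genes without one. The share of genes with a member was 3.78% under 2 kb, 10.6% between 5 and 10 kb and 18.5% at 50 kb and over.

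The position of the element relative to the gene end was different at 72 h. Among 1943 protein-coding genes of at least 3 kb with a member at one end and no other such gene in that member, the early elements were lopsided and reached further into the gene than away from it. The median reach into the gene was 776 bp at 8 h, 738 bp at 12 h, 740 bp at 20 h and 304 bp at 72 h. The reach away from the gene was 446, 402, 406 and 276 bp at the same stages. By these medians the 72 h element was nearly symmetrical about the gene end, but a lean into the gene remained. Elements at 72 h covered the position 500 bp inside in 27.2% of these genes and that 500 bp outside in 7.67%.

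The midpoint of the element lay 158 bp inside the gene at the median at 8 h, 167 bp at 12 h, 169 bp at 20 h and 2 bp at 72 h. The median at 72 h had an interval of -5 to 9 bp, which holds the gene end itself. Midpoints within 100 bp of the gene end made up 27.5%, 24.8%, 26.3% and 58.9% at 8, 12, 20 and 72 h. Those over 100 bp inside the gene were 61.4%, 64.2%, 62.8% and 30.7%, and those over 100 bp outside stayed between 10.4% and 11.1%.

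Both edges lay closer to the gene end at 72 h than at 20 h, the inner edge by more. The median of the 72 h minus the 20 h reach was -350 bp into the gene and -130 bp away from it. The inner edge was the more withdrawn in 68.1% of these genes (66.0 to 70.2) and the outer edge in 30.8%. Between 20 h and 12 h the median difference was 0 bp for both edges. The gene end itself was covered in 96.3%, 95.5%, 94.9% and 86.3% of them at 8, 12, 20 and 72 h.

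The same lopsidedness was seen in regions without a 72 h call. In 4469 regions called at 8 h, 12 h and 20 h only, chosen the same way, the reach into the gene had medians of 645, 597 and 595 bp and the reach away from it 374, 337 and 331 bp. Their midpoints lay 140, 129 and 135 bp inside the gene. Members thus reached further on both sides at the same ages, and the direction of the lopsidedness was shared.

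**Figure D3:**
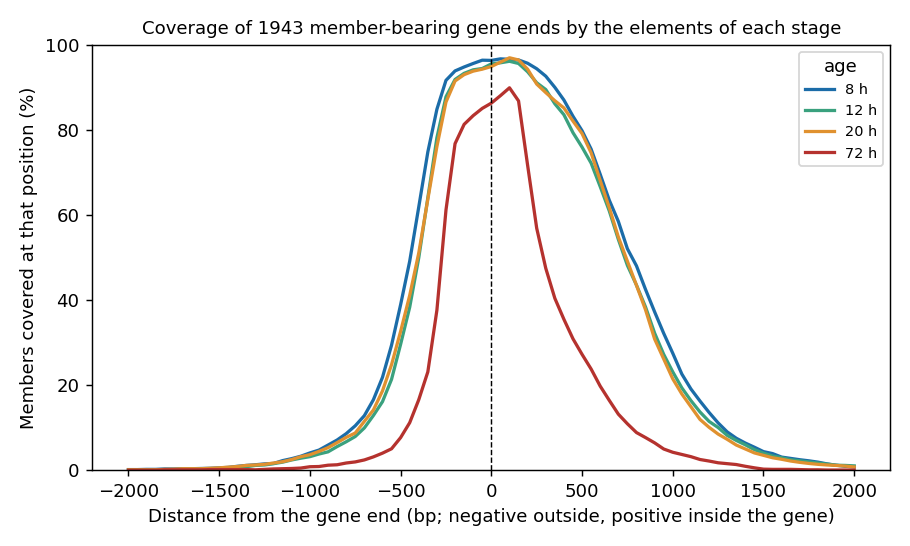
Percentage of 1943 member-bearing ends of protein-coding genes whose elements covered each position, against distance from the gene end in bp, negative outside and positive inside the gene, with 1 line per stage. The curves at 8, 12 and 20 h peak at 96.1% to 96.9% and tail off more slowly inside the gene, and outside it the 8 h curve lies above the others, with 61.9, 49.9 and 51.1% at -400 bp. The 72 h curve peaks at 89.9% and is narrower on both sides. It too tails off more slowly inside the gene, with 27.2% at 500 bp and 7.67% at -500 bp.

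Members at a protein-coding gene end lay at close neighbours more often than the regions compared with them. Of 2518 members at the end of a protein-coding gene, 18.2% lay within 500 bp of ends of 2 or more such genes (16.8 to 19.8). The share was 6.88% of regions called at 8 h, 12 h and 20 h only (6.22 to 7.6) and 3.49% of those called at 1 stage. Within width classes the shares were 12.4% and 6.84% from 1000 to under 1200 bp, and 21.4% and 6.99% from 1200 to under 1400 bp. Below 800 bp too few members were available for a comparison, with 2 of 60 members from 600 to under 800 bp.

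Facing ends of 2 neighbouring genes made up 399 of these members, with a median gap of 167 bp between the genes. Such head-to-head pairs are a known feature of animal genomes, where 1 divergent promoter can serve both genes, but without strand it was not tested whether these pairs are head to head. The element spanned both gene ends in 94.2% of the 399, 93.0%, 92.0% and 85.2% at 8, 12, 20 and 72 h. Its midpoint lay 108.5, 112.5, 114 and 52.5 bp from the centre of the gap. Here too the 72 h element was the most central. Over all members at ends of 2 or more protein-coding genes, median spans were 1370, 1220, 1180 and 670 bp at these stages. A narrow element that spans both ends leaves its midpoint less room to lie off centre.

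Read from the gaps, 27.1% of the 1325 gaps of 1 to 500 bp between neighbouring protein-coding genes held a member (24.8 to 29.6). Regions called at 8 h, 12 h and 20 h only were found in 15.2% of them, and a region of any kind in 49.2%. The shortest gaps joined genes with locus numbers alone. The member at NW_022145605.1:2277331-2278500 held the ends of LOC100893631 and LOC756117, 1 bp apart, and had widths of 1170, 620, 660 and 460 bp at 8, 12, 20 and 72 h.

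Members lay at an end of 119 of 954 placed tRNA genes, 12.5% (10.5 to 14.7), a share near the 12.0% of protein-coding genes. The genes lay at 99 members, with up to 5 genes at 1 member, and 29 of these members were also at a protein-coding gene end. These tRNA genes are transcribed by RNA polymerase III, which PRO-seq also labels. The 70 members at a tRNA gene with no protein-coding end had median widths of 700 bp at 8 h, 625 bp at 12 h, 590 bp at 20 h and 430 bp at 72 h. Their midpoints spanned a median of 90 bp, against 230 bp for members at 1 protein-coding gene end. The regions themselves had median widths of 750 and 1390 bp, and midpoints have less room to differ in a narrow region.

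Threonine tRNA genes had members most often, 22 of 65 genes, while methionine tRNA genes had 2 of 60 and glycine tRNA genes 3 of 67. The threonine genes were not alike, with 12 of 27 for TRNAT-AGU, 9 of 20 for TRNAT-UGU and 1 of 18 for TRNAT-CGU. Copies of a tRNA gene share sequence, so reads can be split among them or lost, and this was not tested. One of the most stable members of all lay at the alanine tRNA gene TRNAA-CGC, at NW_022145600.1:10631711-10632200. Its element was 490 bp wide at 8 h, 12 h and 20 h and 440 bp at 72 h, with the 4 midpoints within 5 bp.

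Members lay less often at the other types of RNA gene, against 10.7% of genes of all types. Members lay at an end of 11 of 256 snRNA genes (4.30%), which encode the RNAs of the spliceosome. They lay at 84 of 3231 lncRNA genes (2.60%) and 8 of 182 rRNA genes (4.40%). A single member lay at 3 of the 53 placed microRNA genes, Mir92a, Mir92b and Mir92c, copies of a conserved microRNA family. It held Mir92a and Mir92c but ended short of Mir92b, which was counted because it lay within 500 bp. This member was one of the 10 widest at 3230 bp, at NW_022145612.1:26943071-26946300. Its elements together covered 2400 bp at 8 h, 2610 bp at 12 h, 2310 bp at 20 h and 880 bp at 72 h.

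The 421 members inside genes had median spans of 910 bp at 8 h, 820 bp at 12 h, 900 bp at 20 h and 560 bp at 72 h. The 478 members between genes had 985, 890, 910 and 540 bp. The ratio of the 72 h to the 20 h span was 0.689 inside genes and 0.669 between genes, against 0.537 at the end of 1 protein-coding gene, 0.587 at ends of 2 or more, and 0.727 at a tRNA gene with no protein-coding end. The 72 h spans of the classes inside genes, between genes and at protein-coding ends lay between 540 and 670 bp.

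Of these 899 members away from gene ends, 29.4% were over 10 kb from any gene end. The median distance to the nearest gene end was 4932 bp inside genes and 6460.5 bp between genes. The farthest lay 83015 bp from any placed gene end, at NW_022145595.1:8787161-8789300, with elements of 1820, 2040, 1220 and 420 bp at 8, 12, 20 and 72 h. The widest member of all, 3740 bp at NW_022145603.1:19069351-19073090, lay inside the gene LOC751836.

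The gene table names few genes beyond a locus number, and 249 placed protein-coding genes had a descriptive symbol. Of these, 83 had a member, 33.3% (27.8 to 39.4), against 11.8% of genes with a locus number. How genes came to be named was not tested, so this is a description. The named genes were sorted by known role into 19 groups, formed after the files were seen. Each group is given below by its count, to be set beside the 33.3%, and so are the gene lists. A named gene is said below to have a region at a stage only by regions within 500 bp of its ends.

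Transcription factors had the highest share among the groups of 4 or more genes. Of 50 placed, 31 had a member, 62.0% (48.2 to 74.1), against 26.1% of the other 199 named genes (20.5 to 32.6). The median gene length was 17949.5 bp in the transcription factor group and 18928 bp in the others. This is a count, and no test was made.

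Of the 10 placed genes of the endoderm list, which holds regulators and other genes, 6 had a member. FoxA, a forkhead factor of the gut, had elements of 700 bp at 8 h, 750 bp at 12 h, 740 bp at 20 h and 800 bp at 72 h, and was widest at 72 h. GATAe, a zinc finger factor that acts upstream of gut genes, had 640, 580, 1050 and 580 bp. The homeobox gene eve had 1010, 1160, 1130 and 920 bp, and lox, a homeobox gene of the gut, spanned 1820, 1560, 1650 and 790 bp. These sets show no common course, with 72 h elements between 580 and 920 bp.

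Of the 15 placed genes of the ectoderm list, regulators and effectors together, 9 had a member. IrxA, of the aboral ectoderm, had 1020 bp at 8 h, 910 bp at 12 h, 1020 bp at 20 h and 810 bp at 72 h. Dlx had 1080, 940, 1290 and 880 bp, and its element lay mostly outside the gene at every stage. Gsc, a repressor of the oral ectoderm, had 640, 440, 1140 and 700 bp and was widest at 20 h. Msx was also widest at 20 h, with 1170, 980, 1550 and 1050 bp. The arylsulfatase gene ARS, an enzyme of the aboral ectoderm, had 530, 720, 1120 and 870 bp.

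SoxB1, a factor of the early embryo and the ectoderm, was held by 2 members that touched end to end. The gene, at NW_022145597.1:22215048-22216147, is short. The members had elements of 990, 1530, 1330 and 670 bp in the first and 990, 1030, 950 and 890 bp in the second at 8, 12, 20 and 72 h. It was the closest pair of members in the genome, with 0 bp between them.

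Of 16 placed skeletogenic genes 4 had a member. The gene ets1, which drives skeletogenic fate, had elements of 1070 bp at 8 h, 1130 bp at 12 h, 990 bp at 20 h and 560 bp at 72 h. The gene snail, which acts when cells leave the epithelium, kept 910, 790, 780 and 750 bp. SM50, a matrix protein of the spicule, was called as well, with 1110, 860, 1060 and 760 bp. At the ends of Alx1, the central skeletogenic regulator, a region was called at 8 h alone.

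Among the other transcription factor genes with a member, named after their values were seen, Klf7, a zinc finger factor, had 1660, 1730, 1590 and 620 bp at 8, 12, 20 and 72 h, and NFkB, which acts in immune and stress responses, had 1100, 1120, 1040 and 460 bp. Oct, a POU factor, had 1160, 1150, 1270 and 920 bp, and usf1, a basic helix-loop-helix factor, had 1130, 1070, 900 and 810 bp. Ets4 had the smallest ratio of 72 h to 20 h span in the group, 0.362, and FoxA the largest, 1.08.

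As a group, the 31 transcription factor genes had median spans of 1160 bp at 8 h, 1070 bp at 12 h, 1140 bp at 20 h and 800 bp at 72 h. The 52 other named genes with a member had 1395, 1335, 1285 and 760 bp. The ratio of 72 h to 20 h span was 0.660 and 0.593 at the median. The midpoint lay 6, -28, 1 and -52 bp from the gene end in the transcription factor genes, where negative is outside the gene, and 90, 86, 84 and -3 bp in the others. These are medians of signed distances, and at 8 h the midpoint lay outside the gene in 15 of the 31 and in 15 of the 52 genes, so they do not give the distance from the gene end.

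**Figure D4:**
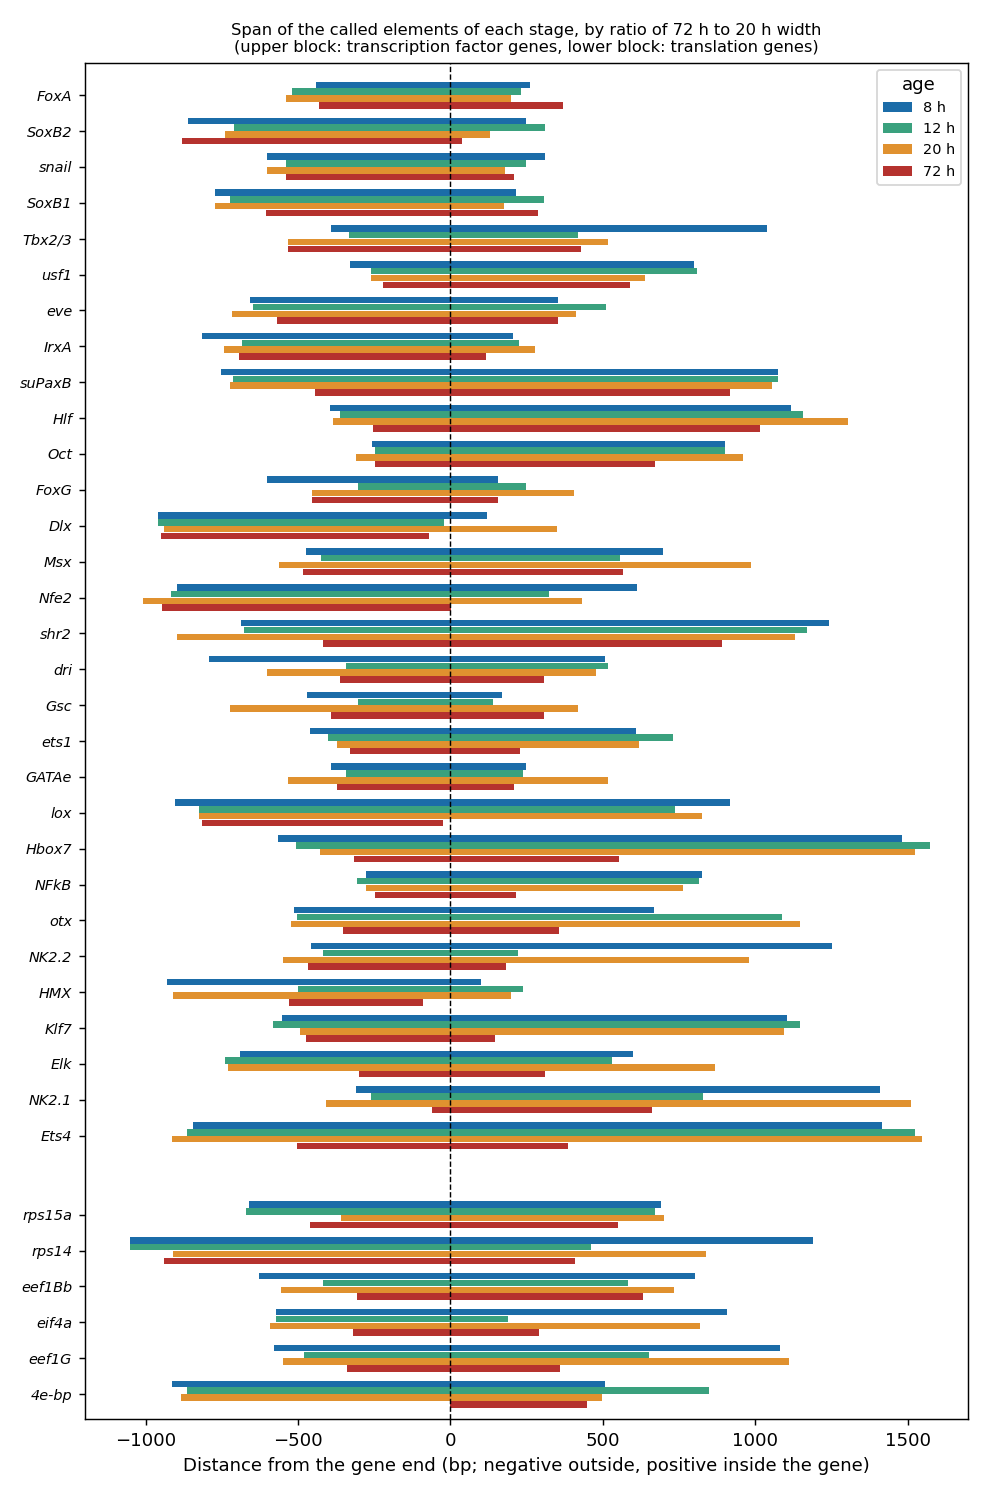
Span of the called elements at 8, 12, 20 and 72 h around the gene end at 0 bp, for 30 of the 31 transcription factor genes and for the 6 translation genes with a member, negative outside and positive inside the gene, ordered in each block by the ratio of 72 h to 20 h span. FoxA is at the top with a ratio of 1.08 and Ets4 ends the upper block with 0.362. The translation genes range from 0.953 to 0.326.

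Of the 11 genes of protein synthesis, 6 had a member. The ribosomal protein genes rps14 and rps15a had spans of 2240, 1510, 1750 and 1350 bp and of 1350, 1340, 1060 and 1010 bp. The elongation factor gene eef1G had 1660, 1130, 1660 and 700 bp, and eif4a, an RNA helicase of initiation, had 1480, 760, 1410 and 610 bp. The gene 4e-bp, which encodes a repressor of cap-dependent translation, had 1420, 1710, 1380 and 450 bp, the smallest ratio of the 6. The other 5 genes, eif4e1, eif4e2, eif4e3, pabp and rpl36, had a region called at 8 h, 12 h and 20 h and none at 72 h.

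Signalling genes stood at 6 of 17, close to the 33.3% of all named genes. BMP2/4, a ligand that patterns the dorsal side, kept its width with 910, 730, 810 and 880 bp. FGF, a growth factor, had 610, 530, 710 and 800 bp and was widest at 72 h. The member of wnt1, a Wnt ligand, lay wholly outside the gene at every stage, with 1080, 1010, 910 and 580 bp. Sp-Smad2/3, which carries Nodal and activin signals to the nucleus, had 1830, 1690, 1570 and 1370 bp. The gene hh, a hedgehog ligand, had a region at 72 h alone.

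Membrane traffic genes had 4 of 7, among them the small GTPase genes rab3, rab7 and rab11 and the fusion ATPase gene NSF. Their widths at 72 h were 580, 920, 730 and 500 bp, against 1910, 1260, 1490 and 1320 bp at 20 h. The cytoskeleton group had 4 of 9, ion transport 4 of 14 and metabolism and stress 4 of 8. The metallothionein gene MTa, which binds metals, was widest at the later stages, with 1190 bp at 8 h, 1340 bp at 12 h, 1650 bp at 20 h and 1630 bp at 72 h.

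In the chromatin group 3 of 9 had a member, the histone variant gene H2A.F/Z, the architectural gene HMG1 and the TATA-binding protein gene TBP. The replication histone genes H2A and H2B-1 had a region at 8 h alone, and H4 had one at 8 h and 12 h. Copies of the histone genes lie in repeats, so reads may be split among copies, which was not tested. Of the cell cycle genes only CycA, a cyclin of the division cycle, had a member, with 1990, 2070, 1490 and 820 bp, while Cdc6, Chk1 and cdk4 were called at 8 h, 12 h and 20 h.

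The 2 placed genes of early secreted proteases, BMP1 and SpAN, both had a member. BMP1, an astacin-type protease, had spans of 3000 bp at 8 h, 2930 bp at 12 h, 2230 bp at 20 h and 690 bp at 72 h, and SpAN had 1120, 910, 770 and 450 bp. SpAN had 4 members within 10 kb of its body, the most of any named gene. ARS, SoxB1 and suPaxB had 3 each.

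Several groups had no member at a gene end. None of 12 sperm and egg genes, 10 immune genes, 6 sialic acid genes and 4 germline and small RNA genes had one, with upper bounds of 24.2%, 27.8%, 39% and 49%. The bounds of the sialic acid and germline groups lie above the 33.3% of named genes, so these are too small to be called low. The groups without a member were not alike at the earlier stages. All 4 germline and small RNA genes, vasa, Nanos2, ago1 and ago1b, had a region called at 8 h, 12 h and 20 h. No region was called at a gene end at any stage in 6 of 10 immune genes, among them Tlr1.1, Tlr1.2, c3 and bf. The same held for 5 of 12 sperm and egg genes. A member lay within 10 kb of the body of 3 of the immune genes, c3 among them, and of 2 of the sperm and egg genes. The numbers were 1 for the sialic acid genes and 0 for the germline and small RNA genes.

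The extracellular matrix and biomineralization group stood at 2 of 18 (11.1%, 3.10 to 32.8). This is below the 33.3% of named genes and near the 12.0% of all protein-coding genes. Its members lay at SM50 and at the syndecan gene Sdc, with 1150, 1270, 1090 and 830 bp. The collagen genes COLP1alpha and COLP2alpha had a region called at 8 h and 72 h but at neither stage between, and PM27, a spicule matrix gene, one at 8 h, 20 h and 72 h. FoxJ1, a regulator of cilia, had one at 12 h, 20 h and 72 h but not at 8 h. Of 10 placed genes of the early zygotic list, 6 had a member, and of 10 on the gamete list none did. Of the 83 named genes with a member, 6 were not narrower at 72 h than at 20 h, namely FoxA, SoxB2, BMP2/4, FGF, AnkAT-1 and egf1.

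**Figure D5:**
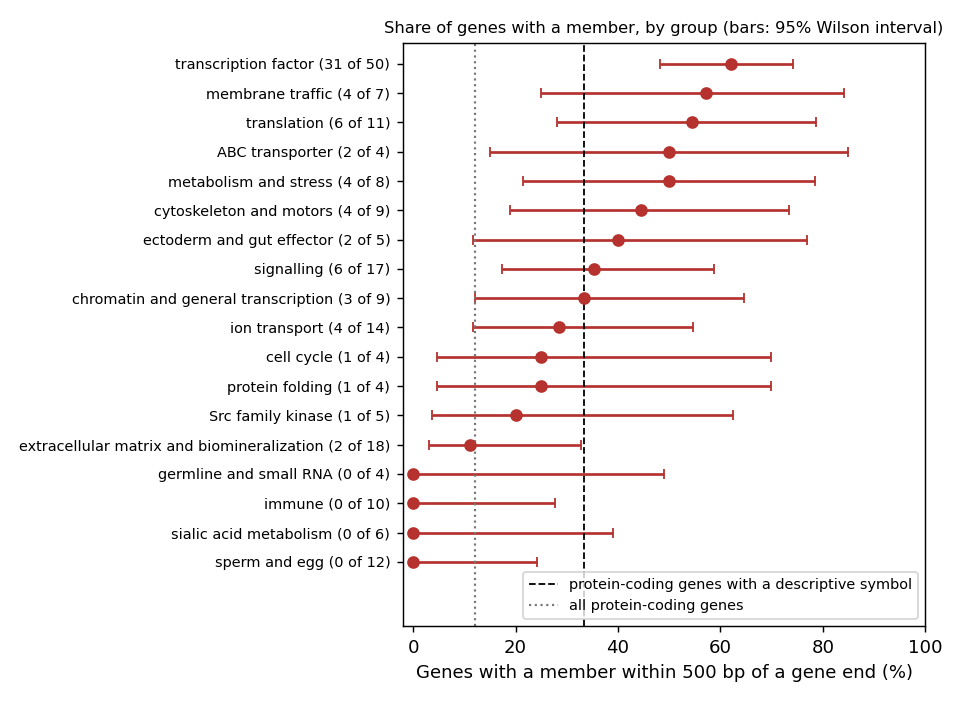
Percentage of placed genes with a member within 500 bp of a gene end, for the 18 groups with at least 4 genes, with the numbers in brackets and 95% Wilson intervals as bars. The dashed line marks 33.3% of named genes and the dotted line 12.0% of all protein-coding genes. The transcription factor group stands at 62.0%, and 4 groups stand at 0.

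The median distance to the next union region was 1910 bp (1810 to 2010), against 2250 bp for regions called at 8 h, 12 h and 20 h only and 3110 bp for those called at 8 h alone. The next member lay 46055 bp away at the median. Another member lay within 10 kb of 18.7% of members (17.4 to 20.0). A member lay within 10 kb of 15.0% of the regions called at 8 h, 12 h and 20 h only and of 8.59% of those called at 8 h alone.

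Members were unevenly spread over the scaffolds. The 5 scaffolds with the most members per Mb, NW_022145611.1 to NW_022145615.1, were picked after their values were seen and held 39.6% of them on 26.1% of the covered length, 6.55 members per Mb against 3.52 on the other 16. Single scaffolds ranged from 6.10 to 7.14 in the first set and from 1.58 to 5.07 in the second, so the sets do not overlap, as follows from choosing them by this value. A member stood at 17.3% of protein-coding genes on the 5 scaffolds and at 9.89% on the others. Protein-coding genes per Mb were 32.5 and 29.0.

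Since 84.7% of the 72 h elements lay in members, the choice of these scaffolds largely fixes their 72 h density too, and the densities are given as a description. On the 5 scaffolds, against the other 16, there were 68.1 and 61.0 elements per Mb at 8 h, 40.7 and 32.1 at 12 h, 56.8 and 38.3 at 20 h, and 7.94 and 4.21 at 72 h. The share of members at a gene end was 76.6% on the 5 scaffolds and 73.6% on the others.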

How the data were processed

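Per the labels, the authors deposited 1 dREG peak list per stage on the Sp 5.0 genome, shared by all PRO-seq libraries of that stage. The unit used was the start and end position of each deposited element, in bp, and the authors gave no score. For the aligner, thresholds and pooling, details were not given in the sources used here.

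Elements of the 4 lists were merged at 1 bp of overlap or more. Python 3.11.15, pandas, numpy and scipy were used. The code for merging and gene placement was run on simulated lists. All 350 true members were found and 4 of 4 gene runs were placed. Simulated elements of the same site always overlapped and those of different sites never did, so this checked the code alone. The simulation does not measure how well the 21 scaffolds were chosen. The spread within a stage could not be measured, so groups were compared by shares with Wilson intervals and by medians. The members and the gene lists were chosen with earlier results of these data known, and the 19 gene groups were formed after the files were seen. Named genes follow a written rule: up to 4 with a member and 3 without per list, the 10 widest, most divided and steadiest members, the closest pairs, the most clustered genes and the shortest gene gaps. Other members of the 19 groups and the extremes named beside them were chosen after their values were seen. Another 27 lists rested on product names, which the gene table lacks, and 6 symbol lists were matched. The pigment cell and mesoderm list and 1 gene are not reported here. Sequence motifs were not analysed here.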

Additional observations from a re-analysis of the deposited data

How the results depend on the processing

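No paired analysis was possible because each stage has 1 pooled list and no result comes from a test. The number of members stayed between 3283 and 3838 under 9 of 11 other rules, such as other merging gaps, a base shared by all stages or elements cut to 300 bp. It was 1654 when 72 h elements had to overlap an element of each earlier list by 50% of both and 16393 without the 72 h list. The lists left out one at a time gave 3730 to 16393 regions. The share of members at a gene end was 73.1% and 76.4% for windows of 0 and 1000 bp, 68.3% by midpoint and 70.6% with protein-coding genes alone. Rules with one list left out, added after seeing the data, gave 53.5% to 74.1%, the lowest without the 72 h list. Members with 1 element per stage had median widths of 1150, 1050 and 1060 bp at 8, 12 and 20 h and a midpoint spread of 185 bp. Merging across 100 bp gave 85.1% of members with 1 element per stage, an alternative added later, and 2020 bp to the next union region. The other 50 values for gene groups and lists moved by less than their intervals. The motif alternatives were not run. The depth of the lists, unknown here, limits every comparison between stages.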
